A study of Drosophila melanogaster with 12 samples.

Results

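The genes described here encode the proteins of the mitochondrial ribosome in Drosophila melanogaster. They were taken as the genes whose single symbol in the platform annotation starts with mRpL or mRpS, each represented by the probe set with the highest mean over the 12 arrays. The rule gave 69 genes, 44 named mRpL and 25 named mRpS, among 11982 genes that had a probe set with 1 symbol. The RefSeq gene table holds 73 such genes. Of the other 4, mRpL34 and mRpL37 had no probe set listed for them, and mRpL53 and mRpS10 shared one with other symbols, so these genes were not analysed here. All 69 stood well up the scale of these arrays, with means over the 12 arrays between 9.54 and 12.05 on the log2 scale, so none was lost to a filter on dim probe sets.

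RNA was measured in whole adult females of LHM, a large outbred laboratory population, with 4 arrays for each of 3 groups, and each array carried a separate extraction of 8 pooled flies. Every female was taken before any mating on day 9 and moved to vials with live yeast on day 12. Double mated females met tester males on days 12 and 13, single mated females on 1 day, and virgins on neither. The single mating is taken to fall on day 13, because the label gives them no males on day 12 and its text breaks off at day 13. Mated females were frozen 6 hours after mating. The tester males were the offspring of a cross between a pair of inbred lines from LHM, so their genotype was shared by all matings. The arrays were the Affymetrix Drosophila Genome 2.0 type, the values are log2 RMA summaries, and their precision is limited by the number of arrays.

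The mitochondrial ribosome translates the few messages of mitochondrial DNA, all of them for subunits of the respiratory chain and the ATP synthase. Its ribosomal RNAs come from mitochondrial DNA, while its proteins are encoded in the nucleus, made in the cytosol and imported. The large subunit joins amino acids, extrudes the new chain through an exit tunnel and binds translation factors at a stalk, and the small subunit reads the message. Some of the proteins have bacterial counterparts, and others are found only in mitochondria. The ovary is rich in mitochondria, which are passed to the egg.

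Tissue markers and 1 array bear on all values below. The label of whole females matched the markers: the yolk protein genes and other female and ovary markers summed to 140093 to 147831 linear units in double mated, 129545 to 136545 in single mated and 110545 to 123186 in virgin females, while testis markers summed to at most 202 units on any array. Of 9 female and ovary markers measured, 4 rose and 1 fell in mated females, and 3 of 5 measured muscle markers rose, with a median change of 0.47 on the log2 scale. The part of tissue composition in the results below was not tested, and in extracts of whole flies fewer cells of a type cannot be told apart from less RNA per cell. Double mated replicate 4 stood apart, with a limma array weight of 0.294, the lowest of the 12.

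Mated females, the mean of the double and single mated groups, were first set against virgins. In limma, 22 of the 69 genes fell and 0 rose at a Benjamini-Hochberg adjusted p under 0.05 over all 18769 probe sets, and 37 were lower and 0 higher at an unadjusted p under 0.05. The decreases were small. The median difference was -0.12 on the log2 scale, or 0.919 of the virgin level, and the range ran from -0.40 for mRpL3 to 0.05 for mRpL1. The difference was below 0 for 67 genes. Over all probe sets tested, 14.2% fell and 10.3% rose. Among the 3806 probe sets with means in the same range as these genes, 31.5% fell, next to 31.9% of the mitochondrial ribosomal protein genes, so the count of calls did not set them apart from probe sets of like level. In that range 66.1% of differences were below 0, with a median of -0.09, against 97.1% of these genes. At an unadjusted limma p under 0.05, 3606 of the 18769 probe sets were lower and 2796 higher. Within the range, 1551 of the 3806 were lower and 652 higher.

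**Figure D1:**
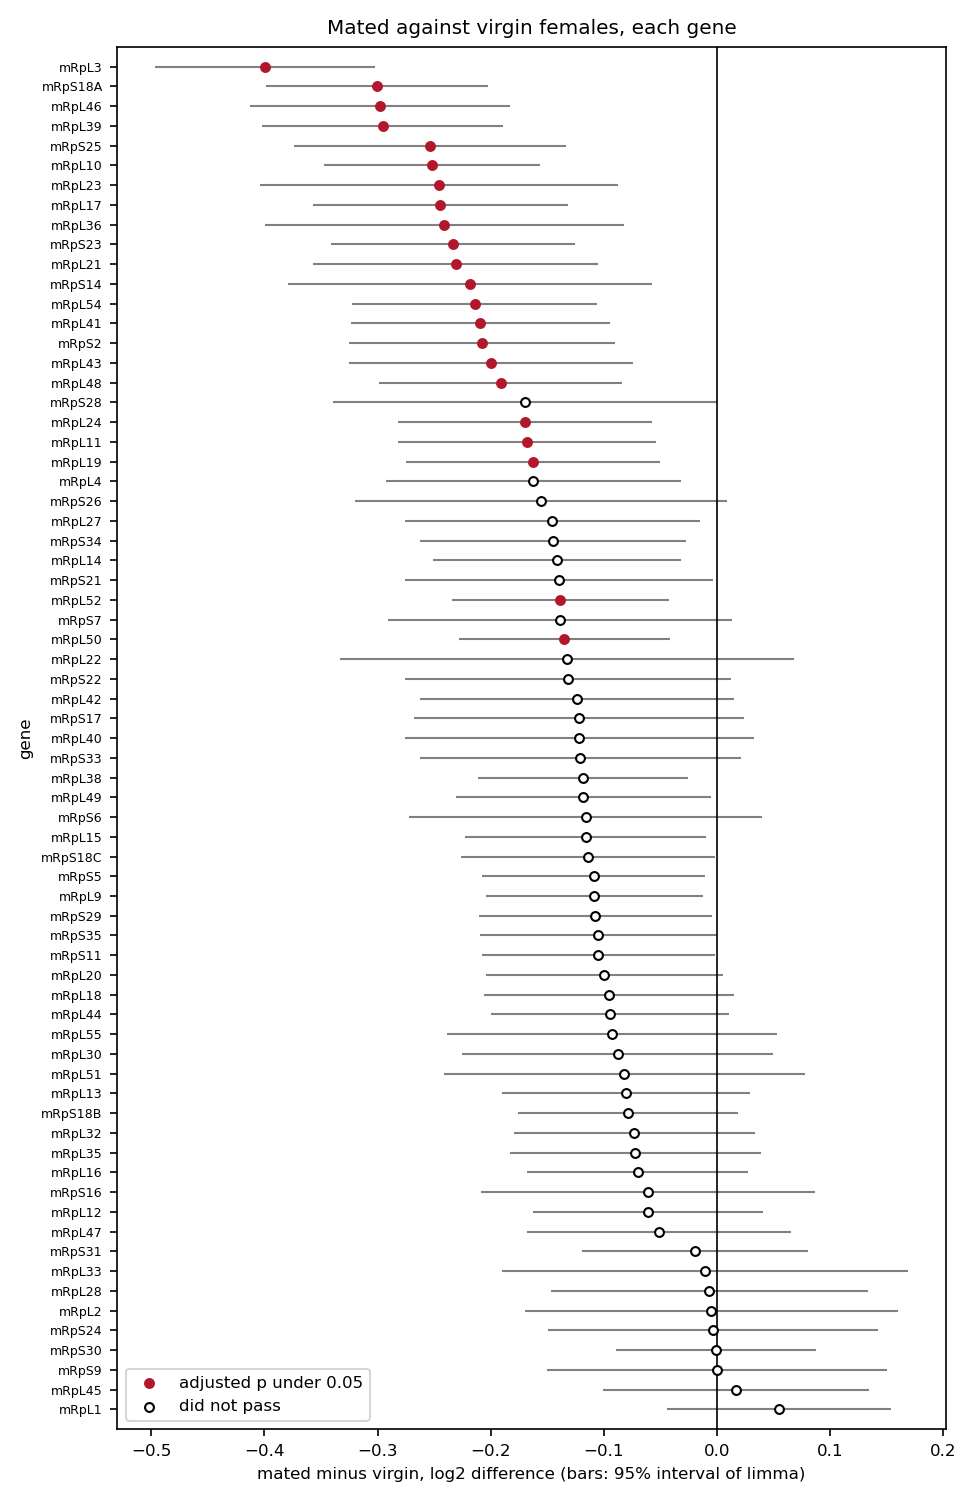
Difference between mated and virgin females for each of the 69 genes (vertical axis) on the log2 scale (horizontal axis), with the 95% interval from limma. Filled points are the 22 genes with an adjusted p under 0.05, and open points the others. Nearly all points lie left of 0, mRpL3 is lowest at -0.40 and mRpL1 highest at 0.05.

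The size of this shift depended on how the arrays were put on 1 scale. After cyclic loess the median of the 69 genes was -0.04, with 7 called lower, 0 called higher and 51 below 0. The 7 calls were 10.1% of these genes, against 10.4% of all probe sets and 17.9% in the same range of level. In that range the median was -0.01 and 50.9% of differences were below 0, against 73.9% of the 69 genes. With every array centred on its median, which moved the median of all probe sets to -0.07, the median of the 69 was -0.19, with 48 called lower. That was 69.6% of the 69, against 21.3% of all probe sets and 43.7% in the same range of level. The 7 genes called lower after cyclic loess were all among the 22: mRpL3, mRpS18A, mRpL46, mRpL39, mRpL10, mRpL17 and mRpS23. These 7 were called under each of the 3 scalings. Of all probe sets called, 41.9% were higher in mated females on the deposited values, 53% after cyclic loess and 26.3% with each array centred.

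Per array, the 69 genes stood highest in virgins. The mean deviation of a gene from its own mean over the 12 arrays was -0.04, -0.01, -0.02 and -0.19 on the double mated arrays, -0.06, -0.03, -0.00 and 0.00 on the single mated arrays, and 0.10, 0.10, 0.12 and 0.03 on the virgin arrays. All 8 mated arrays were thus below all 4 virgin arrays in this mean. The same held for the 3806 probe sets in the same range of level. Their highest mated array stood at 0.018 and their lowest virgin array at 0.024. Virgin replicate 4 was the virgin array closest to the mated ones. In double mated replicate 4, 45 of the 69 genes had their lowest value of the 12 arrays, and 52 lay below the other 3 arrays of their group. On the same array the cytosolic ribosomal protein genes averaged -0.20 and the oxidative phosphorylation genes -0.16 from their own means, against -0.03 for the mitochondrial tRNA synthetases and -0.01 for probe sets in the same range of level. Without that array 25 genes were called lower in mated females, the 22 among them, and the median was -0.10. Leaving out virgin replicate 1, 2 or 3 lowered the count of 22 to 14, 13 and 13 in that order. For counts with an array left out, here and below, the share over all probe sets is not given. These moves are therefore not read as particular to the 69 genes.

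**Figure D2:**
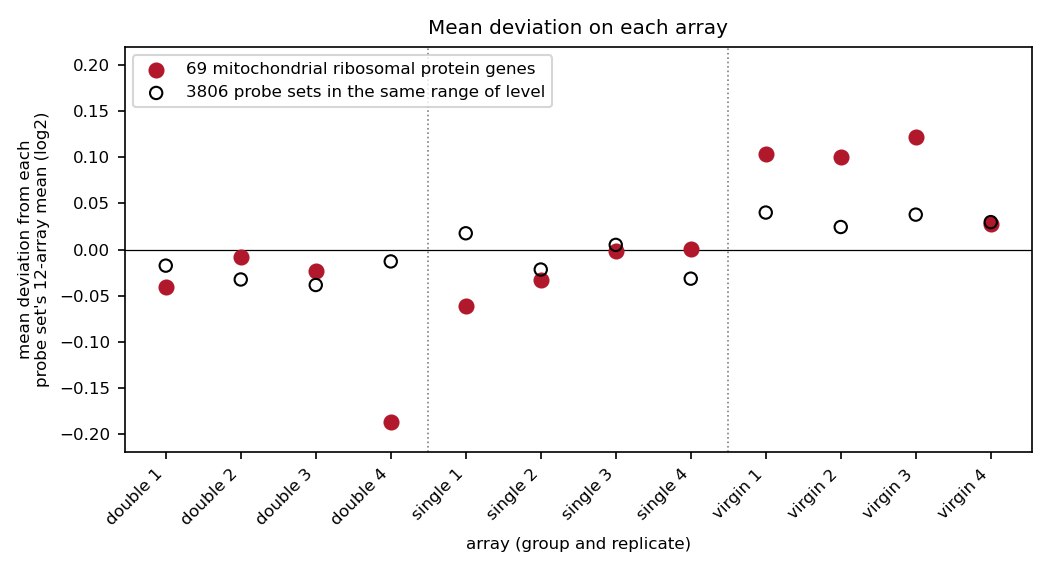
Mean deviation from each probe set's own 12-array mean on the log2 scale (vertical axis) for each array (horizontal axis), for the 69 genes (filled) and for the 3806 probe sets in the same range of level (open). The virgin arrays are highest for the 69 genes, from 0.03 to 0.12, and double mated replicate 4 is lowest at -0.19. The open points stay between -0.04 and 0.04 and are also highest on the virgin arrays.

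The genes differed widely among themselves. For 25 of the 69 (36.2%), all 8 mated arrays lay below all 4 virgin arrays, against 9.66% of all probe sets and 23.7% of those in the same range of level. The SD within groups, pooled over the 3 groups, ran from 0.0146 to 0.173 with a median of 0.0711. By name, 17 of 44 mRpL genes (38.6%) and 5 of 25 mRpS genes (20%) fell, with medians of -0.12 for both. Of all probe sets 14.2% fell, and of those in the same range of level 31.5%. The same shares apply to the counts by region below. Of 42 proteins classed as bacterial type 11 fell, with a median of -0.12, and of 27 classed as mitochondrial type 11 fell, with a median of -0.13. In these classes mRpS18A was put in the mitochondrial type, and the like-named mRpS18B and mRpS18C in the bacterial type. Neither split was tested as a difference. Across the 69 genes the difference had a Pearson correlation of 0.05 and a Spearman correlation of 0.11 with the mean level, a description over genes measured on the same arrays.

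**Figure D3:**
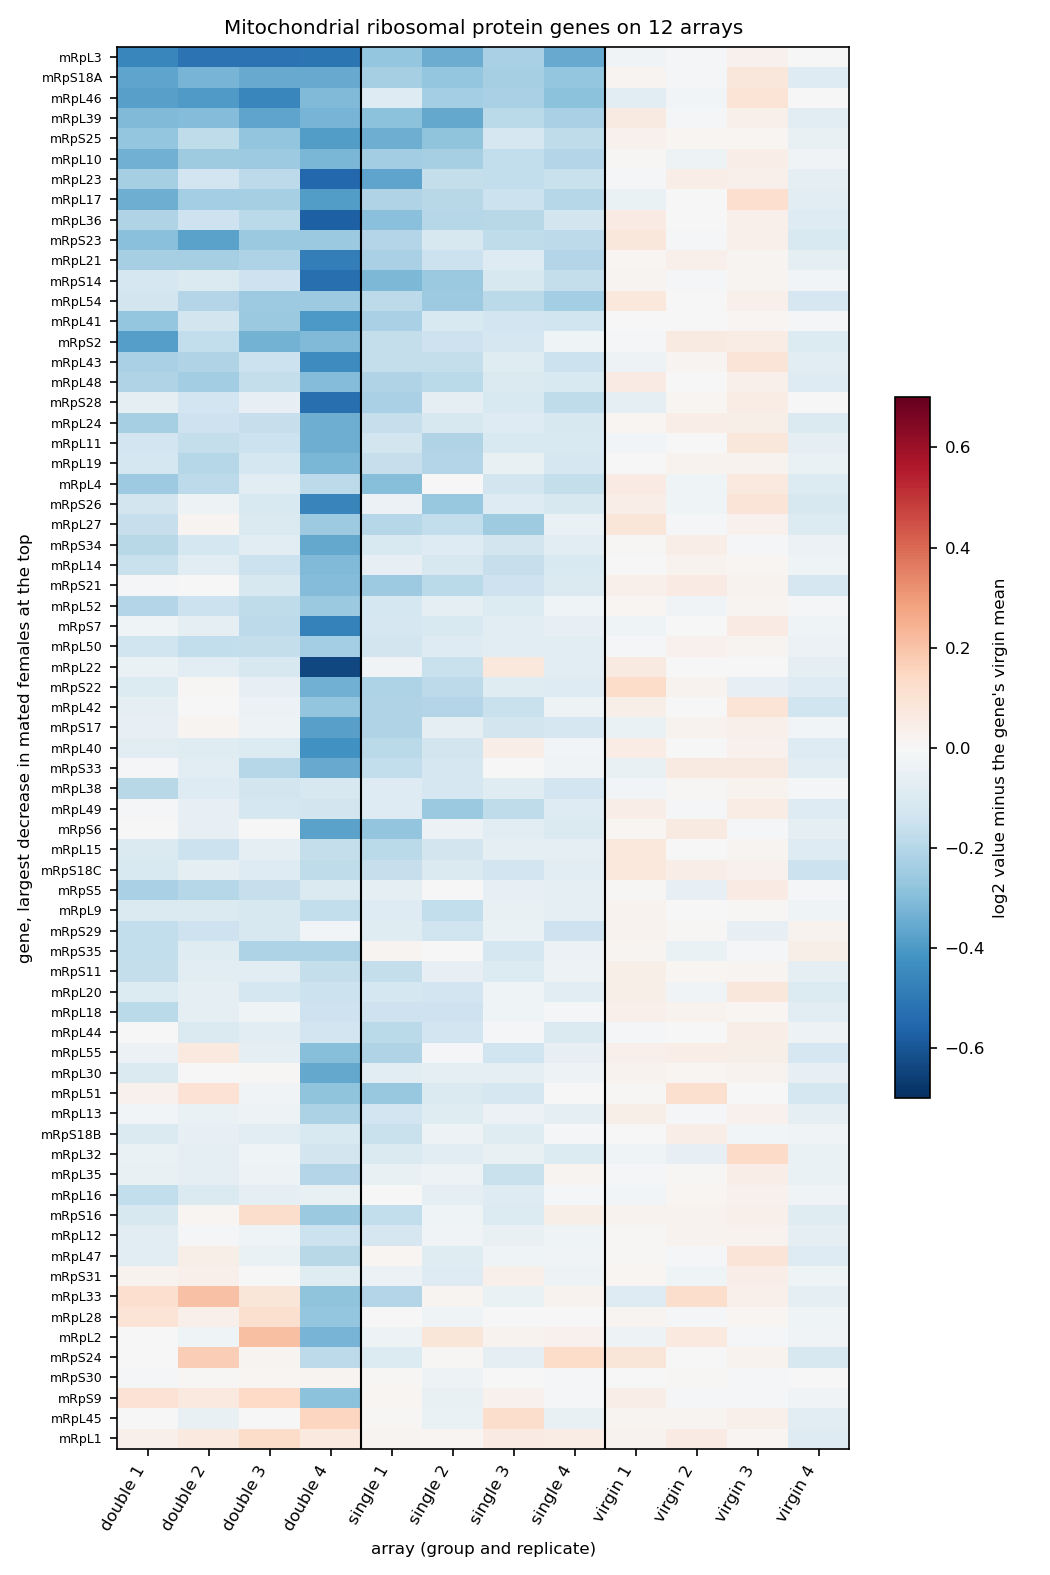
Log2 value minus the gene's virgin mean (colour, blue for lower and red for higher) for the 69 genes (rows, ordered by the difference between mated and virgin females) on the 12 arrays (columns: 4 double mated, 4 single mated, 4 virgin). The upper rows are blue on all 8 mated arrays, the lowest rows mix pale blue and pale red, and the column of double mated replicate 4 is darker than its neighbours in many rows.

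The core of the large subunit, where peptide bonds are formed and assembly starts, held the gene with the largest decrease. mRpL3, whose bacterial counterpart is one of the first proteins to join the subunit, measured 9.90, 9.84, 9.83 and 9.84 in double mated females, 10.08, 10.0015, 10.12 and 9.996 in single mated females, and 10.33, 10.34, 10.38 and 10.35 in virgins. The 3 groups did not overlap. It fell to 0.758 of the virgin level in mated females (95% interval 0.709 to 0.811, log2 difference -0.40, SE 0.05, adjusted p = 4.5e-05). Of the 10 core genes 3 fell, with a median of -0.13. The other decreases were in mRpL21 (-0.23, SE 0.06, adjusted p = 0.00984) and mRpL19 (-0.16, SE 0.05, adjusted p = 0.0342), both chosen after their values were seen. mRpL4, whose bacterial counterpart lines part of the tunnel, averaged 10.68 ± 0.07 in double mated, 10.71 ± 0.12 in single mated and 10.86 ± 0.08 in virgin females (SD, n = 4), and its difference of -0.16 missed the threshold (adjusted p = 0.0691). mRpL2, at the centre of the peptidyl transfer site, measured 9.71 to 10.25 in double mated, 10.003 to 10.12 in single mated and 10.003 to 10.11 in virgin females, with a difference of -0.01 (95% interval of the ratio 0.889 to 1.12). Thus mRpL3 and mRpL2, which meet in the same part of the subunit, stood at opposite ends of the core genes.

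The stalk that recruits translation factors is built of mRpL10, mRpL11 and mRpL12. mRpL10, its base, measured 10.82, 10.91, 10.90 and 10.84 in double mated females, 10.91, 10.93, 10.99 and 10.95 in single mated females, and 11.17, 11.12, 11.21 and 11.14 in virgins, with no mated array reaching a virgin one. It fell to 0.840 of the virgin level (0.786 to 0.897, adjusted p = 8.98e-04). mRpL11, which sits beside the stalk, fell by 0.17 (SE 0.05, adjusted p = 0.0322). Its adjusted p ran from 0.00455 to 0.287 over the alternatives, the highest after cyclic loess. mRpL12, the copy that touches the factors, averaged 11.42 ± 0.06 in double mated, 11.43 ± 0.04 in single mated and 11.48 ± 0.04 in virgin females, a difference of -0.06 that did not pass (adjusted p = 0.411) and that was 0.02 after cyclic loess. The L1 stalk, a separate arm that handles the leaving tRNA, is represented by mRpL1. It measured 10.45, 10.48, 10.55 and 10.49 in double mated females, 10.44, 10.43, 10.47 and 10.47 in single mated females, and 10.44, 10.47, 10.43 and 10.33 in virgins. Its difference of 0.05 did not pass (SE 0.05, adjusted p = 0.454), and it was the highest of the 69 genes.

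Around the exit tunnel 3 of 6 genes fell, with a median of -0.15. mRpL17 measured 11.23, 11.34, 11.34 and 11.18 in double mated females, 11.36, 11.38, 11.42 and 11.37 in single mated females, and 11.53, 11.57, 11.69 and 11.50 in virgins, and it fell to 0.844 of the virgin level (0.781 to 0.913, adjusted p = 0.00339). mRpL23, whose bacterial counterpart docks factors at the tunnel opening, measured 10.78, 10.88, 10.83 and 10.47 in double mated females, 10.65, 10.85, 10.84 and 10.86 in single mated females, and 11.001, 11.07, 11.05 and 10.95 in virgins. It fell to 0.843 (0.756 to 0.941, adjusted p = 0.0242), with the widest spread in the double mated group, where replicate 4 was lowest. The call on mRpL23 ended after cyclic loess (adjusted p = 0.182). mRpL24 fell by 0.17 (SE 0.05, adjusted p = 0.0281) and is named here after its values were seen. mRpL45, which in mammals holds the ribosome to the inner membrane, measured 9.73, 9.68, 9.73 and 9.88 in double mated females, 9.74, 9.68, 9.85 and 9.68 in single mated females, and 9.75, 9.75, 9.77 and 9.65 in virgins. The 3 groups overlapped for mRpL45, and its difference of 0.02 did not pass (95% interval of the ratio 0.933 to 1.10).

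In the central protuberance, the crest of the large subunit that faces the small one, 3 of 7 genes fell, with a median of -0.14. mRpL46 measured 10.44, 10.42, 10.36 and 10.51 in double mated females, 10.73, 10.58, 10.59 and 10.53 in single mated females, and 10.74, 10.80, 10.91 and 10.82 in virgins. All mated arrays lay below all virgin arrays, the highest single mated one by a narrow margin. It fell to 0.813 of the virgin level (0.751 to 0.881, adjusted p = 0.00104). The decreases of mRpL48 (-0.19, SE 0.05, adjusted p = 0.0113) and mRpL52 (-0.14, SE 0.04, adjusted p = 0.0348), named after their values were seen, were smaller. The other 4 genes of the region had differences between -0.15 and -0.10 and did not pass.

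Of 12 large subunit proteins classed as mitochondrial type outside these regions, 6 fell, with a median of -0.13. mRpS18A carries a small subunit name, and its human counterpart sits in the large one. It measured 11.23, 11.27, 11.24 and 11.24 in double mated females, 11.37, 11.33, 11.36 and 11.32 in single mated females, and 11.62, 11.59, 11.67 and 11.51 in virgins, and the 3 groups did not overlap. It fell to 0.812 of the virgin level (0.759 to 0.869, adjusted p = 3.19e-04). mRpL39 measured 10.25, 10.25, 10.19 and 10.23 in double mated females, 10.27, 10.20, 10.37 and 10.33 in single mated females, and 10.62, 10.54, 10.59 and 10.48 in virgins. The double and single mated arrays of mRpL39 were mixed with each other, and all lay below the virgin arrays. It fell to 0.815 (0.757 to 0.877, adjusted p = 6.34e-04). mRpL54 fell by 0.21 (SE 0.05, adjusted p = 0.00618), and mRpL41, mRpL43 and mRpL50, named after their values were seen, by 0.21, 0.20 and 0.13.

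The same class held genes whose groups overlapped. mRpS30, another protein with a small subunit name whose human counterpart belongs to the large one, measured 10.86, 10.88, 10.89 and 10.89 in double mated females, 10.88, 10.84, 10.88 and 10.86 in single mated females, and 10.88, 10.88, 10.86 and 10.87 in virgins. Its values were among the tightest of the 69 genes, and its ratio of mated to virgin levels was 0.999 (0.940 to 1.06). After cyclic loess the difference of mRpS30 was 0.08, also short of the threshold. mRpL44, which resembles an RNase III enzyme, averaged 10.44 ± 0.06, 10.41 ± 0.07 and 10.52 ± 0.04 in the double mated, single mated and virgin groups, and its difference of -0.09 did not pass (adjusted p = 0.194). Among 7 further large subunit proteins of bacterial type, mRpL36 alone was called, with 10.54, 10.60, 10.56 and 10.17 in double mated females, 10.45, 10.54, 10.55 and 10.61 in single mated females, and 10.80, 10.74, 10.78 and 10.65 in virgins. It fell to 0.846 of the virgin level (0.758 to 0.945, adjusted p = 0.0274), and the call ended after cyclic loess (adjusted p = 0.20).

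**Figure D4:**
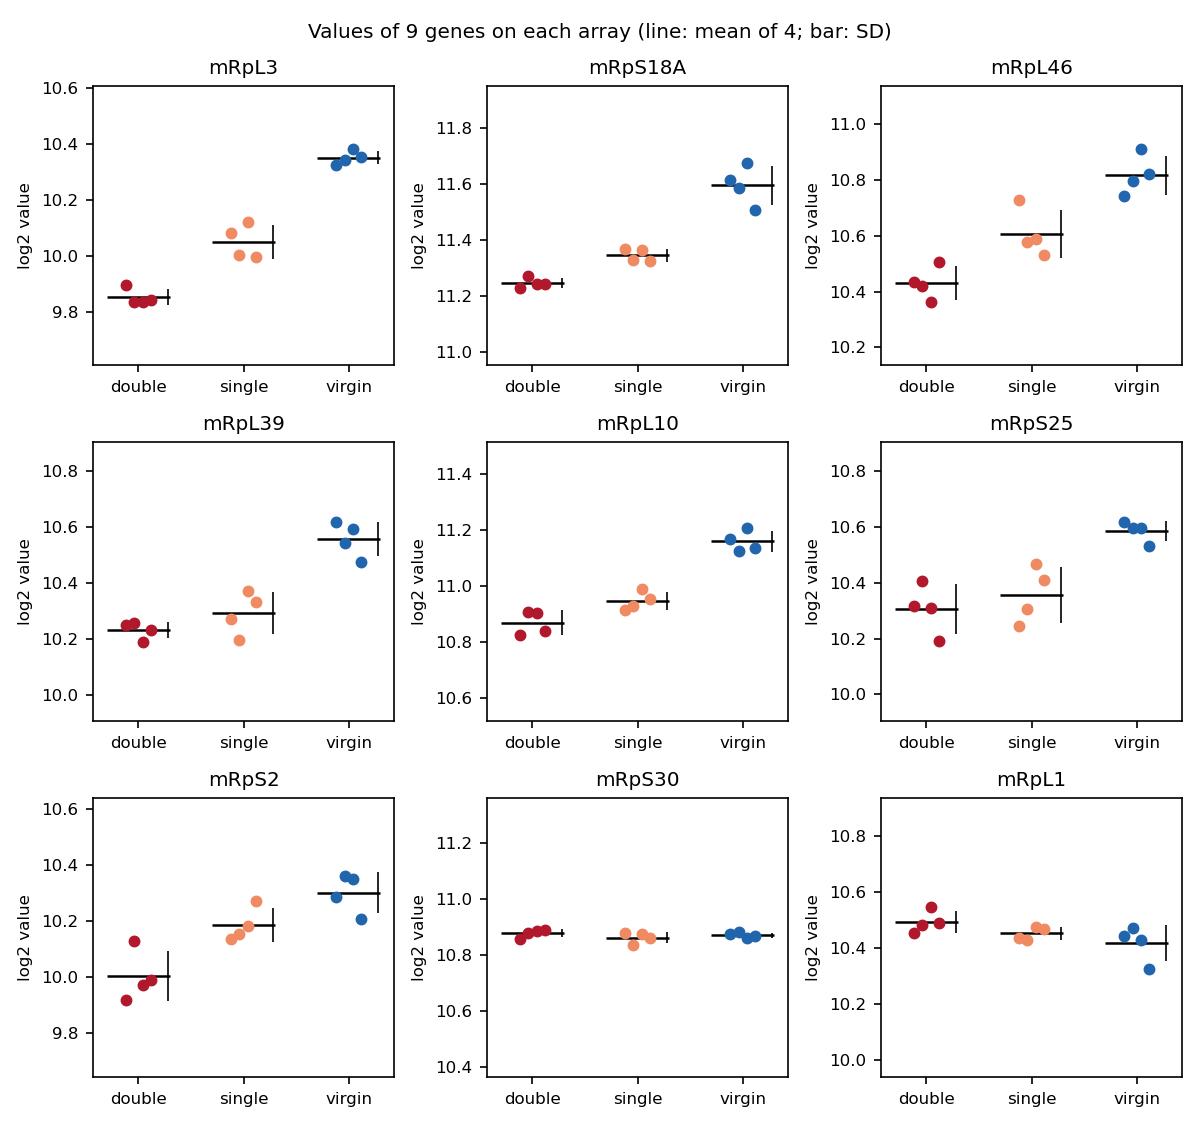
Log2 value on each array (vertical axis, the same width in each panel) for 9 of the genes in double mated, single mated and virgin females (horizontal axis). Lines are means of 4 arrays and bars 1 SD. mRpL3 and mRpS18A step down without overlap between groups, whereas mRpS30 and mRpL1 overlap across the groups.

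In the small subunit, 2 of 14 proteins of bacterial type (14.3%) and 2 of 9 of mitochondrial type (22.2%) fell. Their medians were -0.12 and -0.13. Both shares were below the 31.5% of probe sets in the same range of level. mRpS25 measured 10.31, 10.41, 10.31 and 10.19 in double mated females, 10.24, 10.31, 10.47 and 10.41 in single mated females, and 10.62, 10.60, 10.60 and 10.53 in virgins, with no overlap between mated and virgin arrays. It fell to 0.839 of the virgin level (0.772 to 0.912, adjusted p = 0.00413). mRpS23 measured 10.27, 10.18, 10.30 and 10.30 in double mated females, 10.35, 10.45, 10.38 and 10.38 in single mated females, and 10.64, 10.55, 10.59 and 10.45 in virgins, and it fell to 0.851 (0.790 to 0.917, adjusted p = 0.00339). For mRpS23 the highest single mated array came close to the lowest virgin array.

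mRpS2, a bacterial-type protein of the subunit's body, measured 9.92, 10.13, 9.97 and 9.99 in double mated females, 10.13, 10.15, 10.18 and 10.27 in single mated females, and 10.29, 10.36, 10.35 and 10.21 in virgins. It fell to 0.866 (0.798 to 0.939, adjusted p = 0.0119). One single mated array of mRpS2 lay above the lowest virgin array. The other bacterial-type call was mRpS14, named after its values were seen, which fell by 0.22 (SE 0.08, adjusted p = 0.0474). Its double mated arrays read 10.65, 10.66, 10.62 and 10.24, so replicate 4 stood apart.

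Several small subunit proteins did not pass when the mean of both mated groups was set against virgins. For mRpS29, a GTP-binding protein called DAP3 in humans, the difference was -0.11, and for mRpS5, which lines the path of the message in bacteria, it was -0.11 as well. mRpS34 differed by -0.14 and mRpS35 by -0.10. For mRpS7, of the head that holds the tRNAs in bacteria, the double mated arrays read 11.36, 11.33, 11.21 and 10.92, and the difference of -0.14 had a ratio interval of 0.818 to 1.01. mRpS9, also of the head, measured 10.72, 10.69, 10.76 and 10.33 in double mated females, 10.64, 10.57, 10.65 and 10.61 in single mated females, and 10.67, 10.61, 10.61 and 10.60 in virgins. Its low double mated array stood beside 3 that lay above all virgin arrays, and the ratio was 1.000 (0.901 to 1.11). mRpS24, at the entry of the message channel, had a ratio of 0.998 (0.902 to 1.10).

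Mitochondrial ribosomal proteins also go by other symbols on this platform. tko, the counterpart of the bacterial decoding protein S12, averaged 11.09 ± 0.07 in double mated, 11.12 ± 0.05 in single mated and 11.32 ± 0.07 in virgin females. It fell by 0.21 (SE 0.05, adjusted p = 0.00667), and all 8 mated arrays lay below the virgin ones. bonsai, the counterpart of S15, averaged 11.07 ± 0.06, 11.07 ± 0.03 and 11.12 ± 0.04 in the double mated, single mated and virgin groups, and its difference of -0.04 did not pass (adjusted p = 0.569).

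Double mated females were next compared with virgins. In limma 25 of the 69 genes fell (36.2%) and 0 rose, with a median of -0.12, and 32 were lower and 0 higher at an unadjusted p under 0.05. Over all probe sets 15.7% fell and 12.3% rose, and in the same range of level 34.2% fell, so this share too was near that of probe sets of like level. At an unadjusted limma p under 0.05, 3889 of all 18769 probe sets were lower and 3016 higher. Within the range, 1592 of the 3806 were lower and 740 higher. mRpL3 fell to 0.708 of the virgin level (0.655 to 0.765, adjusted p = 1.77e-05), mRpL46 to 0.766 (0.698 to 0.840), mRpS18A to 0.785 (0.726 to 0.849), mRpL39 to 0.798 (0.733 to 0.869), mRpL17 to 0.812 (0.742 to 0.889) and mRpS2 to 0.813 (0.740 to 0.892). Some genes not called for mated against virgin passed here: mRpS34 fell by 0.19, mRpS5 by 0.17, mRpS35 by 0.17 and mRpL14, named after its values were seen, by 0.17. Without replicate 4 of this group 20 genes were called, all among the 25, with a median of -0.10. The 5 then lost were mRpL11, mRpL14, mRpL19, mRpS34 and mRpS35, with adjusted p between 0.0532 and 0.0812. After cyclic loess 8 of the 25 fell, which is 11.6% of the 69, against 12.5% of all probe sets and 22.3% in the same range of level. The median was then -0.03, and mRpL1 was called higher in limma (0.17, adjusted p = 0.0323), against 0.08 on the deposited values.

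Single mated females were compared with the same virgins, so these values share their virgin arrays with the ones above. In limma 7 of the 69 genes fell (10.1%) and 0 rose, with a median of -0.11, and 20 were lower and 0 higher at an unadjusted p under 0.05. The background was 5.17% lower and 4.49% higher over all probe sets, and 10.4% lower in the same range of level. At an unadjusted limma p under 0.05, 2575 of all 18769 probe sets were lower and 2083 higher. Within the range, 1021 of the 3806 were lower and 438 higher. mRpL3 fell to 0.812 of the virgin level (0.751 to 0.877, adjusted p = 0.00322), mRpL39 to 0.832 (0.764 to 0.906), mRpS18A to 0.840 (0.777 to 0.909), mRpS25 to 0.854 (0.775 to 0.940), mRpL54 to 0.860 (0.788 to 0.937), mRpL10 to 0.863 (0.799 to 0.931) and mRpL46 to 0.864 (0.788 to 0.948). All 7 were also called in double mated females, as the 25 genes called in either group were the 25 of the double mated comparison. With 1 array fewer the count ran between 3 and 12. Without double mated replicate 4, which enters through the shared estimate of spread, 12 genes were called. The count was 3 without single mated replicate 2, virgin replicate 1 or virgin replicate 3, and 4 without single mated replicate 4 or virgin replicate 2. After cyclic loess 3 fell, mRpL3, mRpS18A and mRpL39, and the median was -0.04. These 3 were 4.35% of the 69, against 3.06% of all probe sets and 4.7% in the same range of level.

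The F test over the 3 groups called 17 of the 69 genes, against 24.9% of all probe sets and 43% of those in the same range of level. It called 11 without virgin replicate 1, 2 or 3.

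Double mated females were also set against single mated ones, which differ from them in the mating on day 12. In limma 1 gene, mRpL3, fell and 0 rose, and 7 were lower and 0 higher at an unadjusted p under 0.05. Of all probe sets 1.74% fell and 3.55% rose, and 3.15% fell in the same range of level. At an unadjusted limma p under 0.05, 2172 of all 18769 probe sets were lower and 1883 higher. Within the range, 647 of the 3806 were lower and 390 higher. mRpL3 was at 0.872 of the single mated level (0.807 to 0.942, log2 difference -0.20, SE 0.05, adjusted p = 0.0414). Its call ended under 14 of 25 alternatives, with adjusted p from 0.0118 to 0.121, while the difference stayed between -0.22 and -0.17. The median over the 69 genes was -0.03 and 47 differences were below 0, next to -0.04 for probe sets in the same range of level and -0.03 for all. Without double mated replicate 4 the median was -0.01.

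In 10 of the 69 genes all 4 double mated arrays lay below all 4 single mated arrays, against 5.4% of all probe sets and 8.49% in the same range of level. They were mRpL3, mRpS18A, mRpL46, mRpL10, mRpL17, mRpS23, mRpS2, mRpL52, mRpL50 and mRpS5. mRpS2 was at 0.880 of the single mated level (0.802 to 0.967, adjusted p = 0.106) and mRpL46 at 0.886 (0.808 to 0.971, adjusted p = 0.116), and neither passed. mRpL39, among the lowest against virgins, was at 0.959 of the single mated level (0.880 to 1.04).

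Other genes that serve mitochondrial gene expression were read from lists. In mated against virgin females, 14.2% of all probe sets and 31.5% of those in the members' range of level fell. The same shares apply to the list counts below. Of 8 translation factor genes 4 fell and 0 rose in mated against virgin females, with a median of -0.18. mIF3, the initiation factor, fell by 0.38 (SE 0.06, adjusted p = 5.35e-04), mRRF2 and mRRF1, ribosome recycling factors, by 0.32 (SE 0.08) and 0.20 (SE 0.06), and mRF1, a release factor, by 0.22 (SE 0.08). mEFTu1, the elongation factor that brings in tRNAs, had a difference of 0.05 and did not pass, and is named after its value was seen. Of 15 mitochondrial tRNA synthetases, which load tRNAs with amino acids, 10 fell (66.7%) and 0 rose, with a median of -0.21. IleRS-m fell by 0.45 (SE 0.09), ValRS-m by 0.44 (SE 0.09), GluRS-m by 0.34 (SE 0.08) and MetRS-m by 0.33 (SE 0.06). After cyclic loess 2 translation factors (25%) and 7 synthetases (46.7%) fell, with medians of -0.13 and -0.16. The shares were then 10.4% of all probe sets and 17.9% in the members' range of level, here and for the lists below. In single mated against virgin females 1 translation factor and 0 synthetases were called, with medians of -0.14 and -0.18. Differences were below 0 for 7 of the 8 translation factors and for 15 of the 15 synthetases.

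Of 9 genes listed under mitochondrial rRNA processing and ribosome assembly 6 fell (66.7%) and 1 rose, with a median of -0.16. mTerf5 fell by 0.33 (SE 0.06), CG14100 by 0.24 (SE 0.05) and Mrm2, a ribosomal RNA methyltransferase, by 0.22 (SE 0.06), while bsf, an RNA-binding protein, rose by 0.20 (SE 0.05, adjusted p = 0.00478). Whether mTerf5 and bsf act in the steps that name the list was not examined. After cyclic loess 2 genes of this list fell and 1 rose, with a median of -0.11. Of 6 genes listed under mitochondrial transcription and DNA maintenance 3 fell (50%) and 0 rose, with a median of -0.19. EndoG, a mitochondrial nuclease, fell by 0.26 (SE 0.05), mtSSB, which coats single-stranded DNA, by 0.24 (SE 0.06) and mtTFB2, a transcription factor, by 0.27 (SE 0.08). PolrMT, the RNA polymerase, and TFAM, which packs the DNA, had differences of 0.04 and -0.09 and did not pass, and both are named after their values were seen. After cyclic loess 2 of the 6 fell and 0 rose, with a median of -0.12. In single mated against virgin females 0 genes of either list were called. The medians were then -0.16 for the rRNA list and -0.15 for the transcription list. Differences were below 0 for 8 of 9 and 6 of 6 genes.

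Import, protein quality control and the respiratory chain made up further mitochondrial lists. Of 18 import genes 3 fell (16.7%) and 0 rose, with a median of -0.04. After cyclic loess 2 fell and 1 rose, and the median was 0.03. The 3 that fell on the deposited values were Tom70, an outer membrane receptor (-0.33, SE 0.07), Tim23, the inner membrane channel (-0.20, SE 0.05), and CG8728 (-0.20, SE 0.05). In single mated against virgin females 0 import genes were called, with a median of -0.02. Of 13 chaperones and proteases 3 fell, Spg7, Trap1 and Hsp60A, by 0.24, 0.22 and 0.17, which is 23.1%, next to the 31.5% lower among probe sets in the members' range of level, and the list's median was -0.06. After cyclic loess 1 of these 13 genes fell and 2 rose, with a median of 0.02, so the direction of the list was not settled. Of 54 oxidative phosphorylation subunits encoded in the nucleus, the partners of the proteins that the mitochondrial ribosome makes, 0 fell and 1 rose, COX7B (0.17, SE 0.05, adjusted p = 0.0352), with a median of 0.00. With each array centred 1 fell and 0 rose and the median was -0.06, and after cyclic loess 0 fell and 4 rose and it was 0.07, so its sign was not settled. Of 36 cytosolic ribosomal proteins 1 fell, RpS5b (-0.17, SE 0.06, adjusted p = 0.0438), with a median of -0.03, and after cyclic loess 0 were called. Outside the mitochondrion, 21 of 26 proteasome subunits fell (80.8%), with a median of -0.25. After cyclic loess 16 of them fell, with a median of -0.18. Differences between these lists were not tested.

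**Figure D5:**
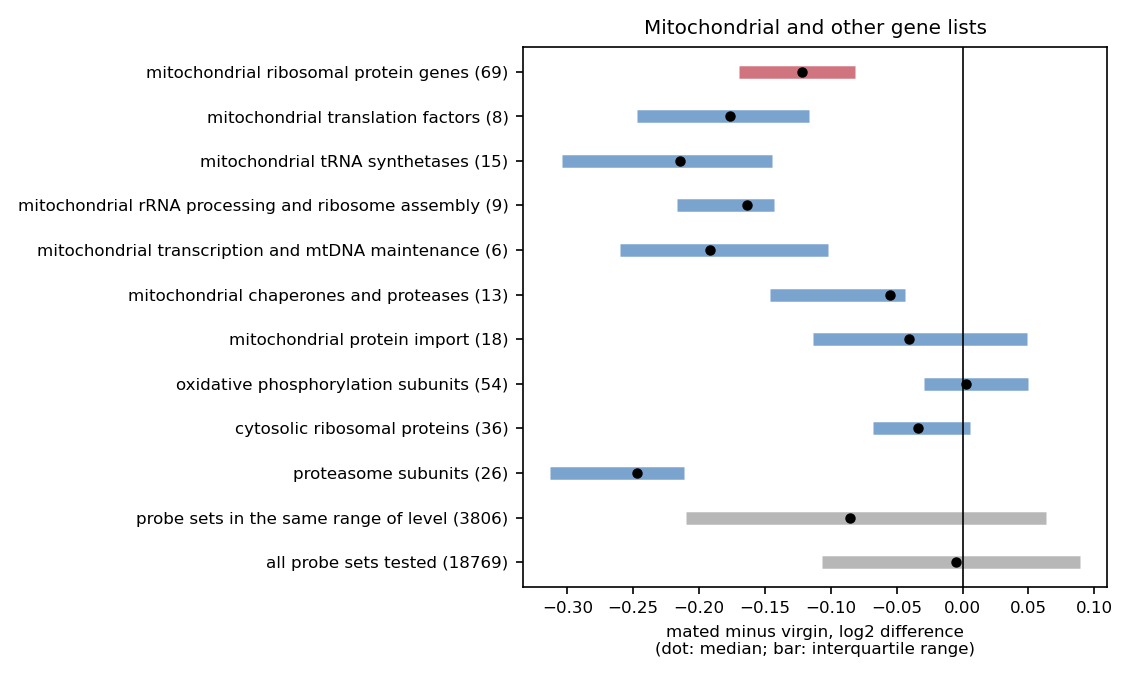
Median (dot) and interquartile range (bar) of the log2 difference between mated and virgin females (horizontal axis) for the mitochondrial ribosomal protein genes, other gene lists and the background probe sets, with the number of genes in brackets (vertical axis). The mitochondrial ribosomal protein genes lie at -0.12, the tRNA synthetases at -0.21 and the oxidative phosphorylation subunits at 0.00.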

How the data were processed

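The authors deposited 1 table of log2 values, a row per probe set and a column per array, made with RMA and affy per the submitters' processing notes, with no versions given. RMA includes quantile normalization. Of 18952 probe sets, 183 controls were left out and 18769 tested. Group means of all 12 arrays were fitted with limma 3.58.1 in R 4.3.3 (lmFit, eBayes), with Benjamini-Hochberg adjustment over all of them and a threshold of 0.05. The fit was tested on simulated data. Symbols came from the platform annotation, and the regions of the ribosome from textbook knowledge of bacterial and mammalian ribosomes. The members and lists were chosen with earlier results of these data known. Named genes were the 10, 6, 6 and 8 largest called changes for mated, single mated and double mated against virgin and double against single mated, 20 members with known roles, the leading call of each region, up to 4 called genes a list, tko and bonsai. Others are marked. Same-numbered arrays did not deviate together (r over 0.1 in 1 of 12 pairs, range -0.26 to 0.14). This check cannot tell whether the numbers pair samples, and the main fit used no pairing. Alternatives covered the replicate block, scaling, gene length, dim probe sets, variance model, array weights, probe set choice, threshold, arrays fitted and leaving out each array. P-values rest on the spread between pools within groups, shared over all 12 arrays and moderated by limma across probe sets.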

Additional observations from a re-analysis of the deposited data

Results flagged for a closer look

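Single arrays that lay far from the other 3 of their group were sought in 84 sets of 4 values, and 6 were found, where chance gives about 1 in 20. The gap to the nearest array, as a share of the group's range, was 0.887 for mRpL3 in double mated females, where replicate 1 was highest at 9.90. It was 0.917 for mRpL23 in single mated females, where replicate 1 was lowest at 10.65. In double mated females it was 0.845 for mRpL36, 0.830 for mRpL11 and 0.845 for mRpS9, in each of which replicate 4 was lowest. In virgins it was 0.849 for mRpL45, where replicate 4 was lowest at 9.65.

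The effect of mating against the shared virgins differed between the double and single mated groups for mRpL3, by a limma test of the difference itself (-0.20 on the log2 scale, adjusted p = 0.0414). The call ended under 14 of 25 alternatives, among them the replicate block (adjusted p = 0.0882) and fitting only the groups compared (adjusted p = 0.121). All 4 double mated arrays lay below all 4 single mated arrays.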

How the results depend on the processing

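No called gene or count listed here changed sign under the 13 alternatives and 12 arrays left out. On the deposited values 22 members were called lower in mated, 25 in double mated and 7 in single mated females, each set against virgins, 1 in double against single mated females, and 17 by the F test. In that order, centring the arrays on their medians gave 48, 44, 20, 0 and 34, and the first 3 medians were -0.19, -0.19 and -0.17. The 44 calls were 63.8% of the members, against 23% of all probe sets and 44.6% in the same range of level. The 20 calls were 29%, against 10.3% and 21%. After cyclic loess the counts were 7, 8, 3 and 1, with 5 by the F test, and 1 called higher (mRpL1). The medians were then -0.041 in mated, -0.030 in double mated and -0.039 in single mated females. At an adjusted p under 0.01 they were 11, 13, 2 and 0, with 8 by the F test. Probe sets with a mean above 7 gave 11 for single mated females and 26 by the F test, and array weights gave 13 for single mated females. The replicate block gave 18 for mated, 21 for double mated and 5 for single mated females against virgins. It gave 0 for double against single mated ones, and fitting only the groups compared gave 0 for that comparison as well. Leaving out 1 array gave 13 to 25, 17 to 25, 3 to 12 and 0 to 1 calls, and 11 to 19 by the F test, with medians of -0.15 to -0.10, -0.16 to -0.10, -0.12 to -0.10 and -0.05 to -0.01. The lowest count for mated against virgin, 13, was without virgin replicate 2 or 3. The causes of these moves were not tested. Shares over all probe sets are given only for the comparisons with virgins under median centring and cyclic loess. The other alternative counts here are not read as particular to the members. Array signal carries no read depth. Keeping probe sets with a mean above 5 or above 7 gave 27 and 32 calls for mated against virgin.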

Other observations

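mRpL47 and mRpS11 each had a second probe set with a lower mean, which was not used for the counts. The second probe set of mRpL47 differed by -0.10 between mated and virgin females (adjusted p = 0.29), against -0.05 for the one used, and the second one of mRpS11 by -0.02 (adjusted p = 0.793), against -0.10. None of these 4 differences passed in limma.

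mRpL22 had the widest gap between double mated replicate 4 and the rest of its group, chosen after its values were seen. It measured 10.57, 10.54, 10.51 and 9.98 in double mated females, 10.59, 10.46, 10.69 and 10.54 in single mated females, and 10.68, 10.61, 10.62 and 10.55 in virgins. Replicate 4 lay 0.56 below the mean of the other 3 double mated arrays, while over all 69 genes the median of that gap was -0.15 and its highest value 0.17, for mRpL45.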
